A study of Homo sapiens with 12 samples.

Results

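The type I interferon response genes are 42 genes whose transcription rises when a cell receives interferon alpha or beta. They were taken from a given list of gene symbols, and all 42 were found, each on exactly 1 probe set, among 18404 genes with a single symbol on a whole-transcript expression array. The study compared 2 established Hodgkin lymphoma lines, L-1236 and L-UHO-1, after transduction with a short hairpin RNA against GATA-3 (labelled siGATA-3) or with a hairpin meant to have no function (labelled siSCR). The 12 arrays fell into 4 groups of 3: L-1236 siGATA-3, L-1236 siSCR, L-UHO-1 siGATA-3 and L-UHO-1 siSCR. Every group was transduced, cultured for 3 days and sorted for GFP, the marker of the transduced cells, and RNA of 25000 sorted cells was amplified for each array. L-1236 was grown in RPMI medium and L-UHO-1 in IMDM, so line and medium cannot be told apart. Both hairpins were delivered by transduction and an untransduced group was not analysed here, so no comparison gives the level of these genes without transduction.

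Interferons alpha and beta bind the receptor made of IFNAR1 and IFNAR2, which activates the kinases JAK1 and TYK2. The signal ends at transcription factors, IRF9 among them, that bind interferon-stimulated response elements in the promoters of target genes. The products of those genes sense viral RNA or DNA, block translation, degrade RNA, modify proteins with the ubiquitin-like ISG15, or hold virus particles at the membrane, and Hodgkin cells are known for constitutive JAK-STAT signalling.

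The promoters of members with the widest and with the narrowest spread over the L-1236 arrays are shown first, because those genes carry the contrast described afterwards. Each is the RefSeq window of 300 bases, from 250 before to 50 after the gene's start, on GRCh38.p14, written 5′ to 3′ along the gene. Capitals mark the core of the interferon-stimulated response element, GAAA followed after any 2 bases by another GAAA, read on either strand, so that TTTC, any 2 bases and TTTC is the same core on the other strand. IFIT1 lies at chr10:89392373-89392672 (plus strand), IFIT3 at chr10:89327747-89328046 (plus strand), IFI44 at chr1:78649539-78649838 (plus strand) and CMPK2 at chr2:6866586-6866885 (minus strand).
IFIT1: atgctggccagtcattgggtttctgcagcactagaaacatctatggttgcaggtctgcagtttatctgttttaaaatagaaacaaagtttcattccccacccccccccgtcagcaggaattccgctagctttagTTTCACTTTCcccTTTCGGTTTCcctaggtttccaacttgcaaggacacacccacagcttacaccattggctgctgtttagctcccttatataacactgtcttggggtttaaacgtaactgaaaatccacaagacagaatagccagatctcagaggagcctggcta
IFIT3: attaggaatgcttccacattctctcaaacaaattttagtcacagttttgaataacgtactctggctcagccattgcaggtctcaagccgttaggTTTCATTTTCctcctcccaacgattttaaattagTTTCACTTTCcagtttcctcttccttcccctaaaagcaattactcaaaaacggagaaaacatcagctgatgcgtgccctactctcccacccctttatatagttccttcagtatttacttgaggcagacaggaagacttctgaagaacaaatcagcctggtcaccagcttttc
IFI44: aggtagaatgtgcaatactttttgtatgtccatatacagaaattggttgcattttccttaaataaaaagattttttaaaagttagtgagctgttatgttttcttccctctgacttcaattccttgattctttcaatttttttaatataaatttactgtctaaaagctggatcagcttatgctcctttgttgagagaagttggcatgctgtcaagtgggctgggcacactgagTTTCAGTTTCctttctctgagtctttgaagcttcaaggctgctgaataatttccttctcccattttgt
CMPK2: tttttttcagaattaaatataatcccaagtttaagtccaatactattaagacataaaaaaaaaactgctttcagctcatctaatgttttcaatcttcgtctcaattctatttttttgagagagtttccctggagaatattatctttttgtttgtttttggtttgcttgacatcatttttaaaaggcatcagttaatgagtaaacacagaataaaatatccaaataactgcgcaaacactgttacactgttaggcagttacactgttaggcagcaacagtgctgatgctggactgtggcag
The IFIT1 window holds 2 matches, whose far ends, away from the start, lie 103 and 116 bases before it. IFIT3 holds 2, with far ends 122 and 156 bases before the start, and IFI44 holds 1, with its far end 18 bases before the start. CMPK2 holds 0 in this window.

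Of the 42 members, 34 had a promoter window, and 23 of these (67.6%) held the response-element core, against 996 of all 27305 windows (3.65%). The core bound by STAT dimers, TTC followed after any 3 bases by GAA, searched on both strands, stood in 8 member windows (23.5%), against 2152 of all windows (7.88%). In 3 member windows a match of one overlapped a match of the other. The core stood in 19 of the 27 windows of members whose L-1236 arrays spanned at least 1 log2 unit and in 4 of the 7 windows of the others. IFI27 and LGALS3BP, which barely varied, held 2 and 1 matches, while OAS1, XAF1 and IFI16, which varied widely, held 0. A match is a run of letters, not a measured site. No window was matched for DHX58, IFIT2, LAMP3, MX2, OAS2, OASL, TRIM22 and USP18.

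The target of the hairpin was read first, because the group names rest on the labels. GATA3 read 10.80, 10.00 and 10.24 on the L-1236 arrays labelled siGATA-3 (replicates 1, 2 and 3) and 10.29, 10.69 and 9.95 on those labelled siSCR. In L-UHO-1 it read 11.07, 10.12 and 10.22 on arrays labelled siGATA-3 and 11.24, 10.90 and 10.24 on those labelled siSCR. The labels overlapped in both lines. In both lines replicate 1 was the highest of the arrays labelled siGATA-3 and replicate 3 the lowest of those labelled siSCR. In L-1236 these were the highest and the lowest of all 6 arrays, against their labels, so every direction between the labels is that of arrays as labelled. Values are given with and without these arrays where a result turns on them.

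The values are log2 levels, with array medians from 6.96 to 7.09. The correlation over probe sets was 0.986 to 0.995 between arrays of a line, and 0.939 to 0.951 between the lines. The Hodgkin marker TNFRSF8, the CD30 antigen, was high on all arrays at 9.36 to 10.50, while the B-cell antigen CD79A, which Hodgkin cells are known to lose, read 6.52 to 6.83. All 10 Hodgkin marker genes of the list averaged 9.40 to 9.58 over the L-1236 arrays and 9.58 to 9.77 over the L-UHO-1 arrays. Between the lines 2 of the 10 were called higher in L-1236 (2.45% of all probe sets) and 2 lower (2.43%). The means of 5 measured B-cell genes were 7.19 to 7.27 in L-1236 and 6.57 to 6.71 in L-UHO-1, and 1 of the 5, the B-cell factor PAX5, was called higher in L-1236 at 9.22 to 9.93, against 7.57 to 7.76 in L-UHO-1. Markers of cells that could contribute interferon or its targets differed little among the arrays of a line: their means per array ran from 6.12 to 6.28 in L-1236 and 6.15 to 6.36 in L-UHO-1 for 5 T-cell genes, from 6.16 to 6.26 in L-1236 and 6.27 to 6.37 in L-UHO-1 for 5 natural killer genes, and from 6.31 to 6.44 in L-1236 and 6.28 to 6.40 in L-UHO-1 for 6 monocyte genes. The 4 plasmacytoid dendritic cell genes averaged 7.59 to 7.77 in L-1236 and 7.89 to 8.05 in L-UHO-1, with the defining CLEC4C at 5.89 to 6.12 in L-1236 and 5.88 to 6.09 in L-UHO-1. The 3 proliferation genes averaged 9.73 to 10.55 over the L-1236 arrays and 10.77 to 11.01 over the L-UHO-1 arrays. They too spread more in L-1236, with a median ratio of the SDs, L-1236 over L-UHO-1, of 3.81. Of the 3, 1 spanned at least 1 log2 unit in L-1236 (1.93% of all probe sets) and 1 was called lower there than in L-UHO-1 (2.43%). In bulk RNA, fewer cells that express a gene and less RNA per cell cannot be told apart. The series describes its samples as independent but not in what way, so every p-value reflects only how far these arrays differed among themselves, and their small number limits precision.

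Across the L-1236 arrays the interferon response genes varied together, without following the labels. The mean of the 42 members was 8.89, 9.44 and 8.32 on the L-1236 arrays labelled siGATA-3 and 7.88, 7.73 and 9.59 on those labelled siSCR. In L-UHO-1 it was 8.22, 8.40 and 8.24 on arrays labelled siGATA-3 and 8.37, 8.17 and 8.21 on those labelled siSCR. The highest and the lowest L-1236 array thus both carried the label siSCR, and the L-UHO-1 arrays all lay within the range of the L-1236 arrays.

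**Figure D1:**
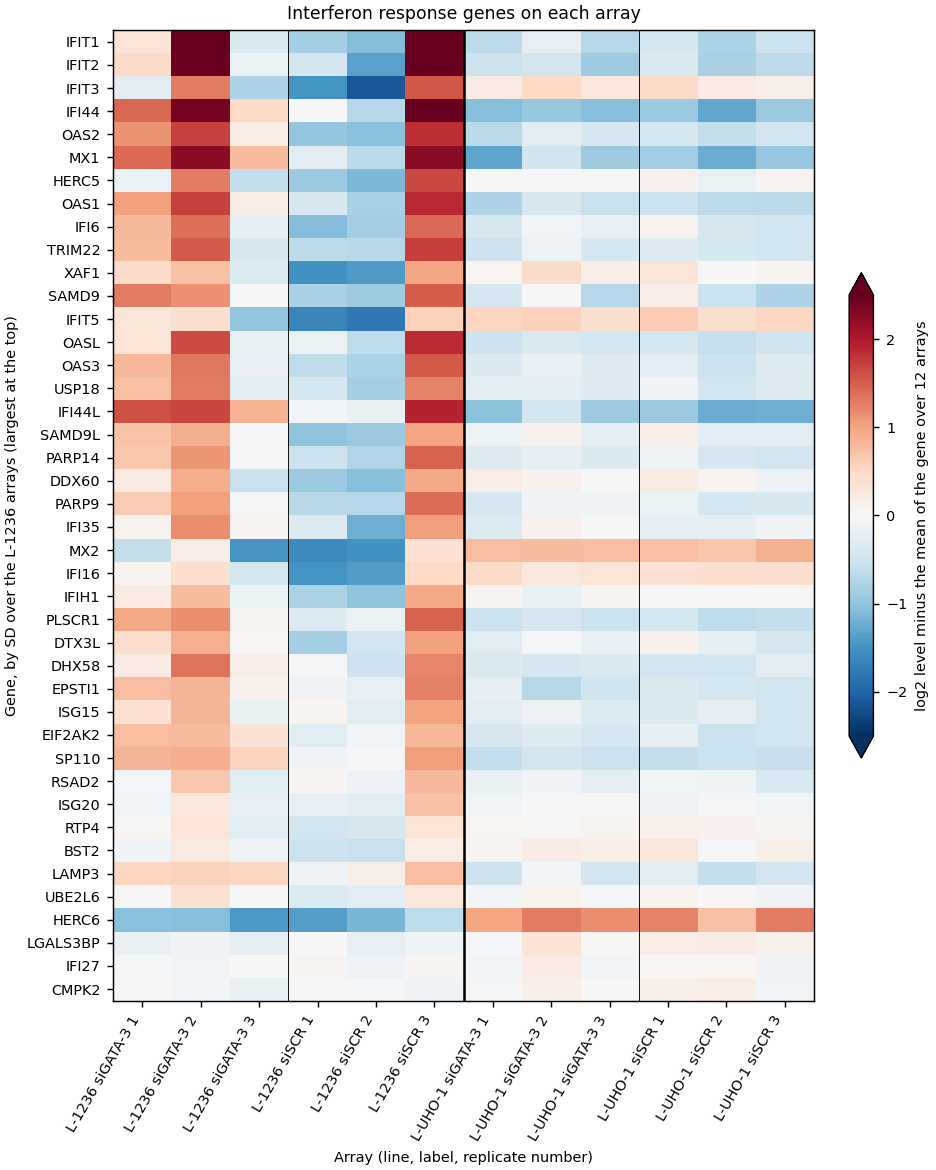
Log2 level of each of the 42 interferon response genes (rows, by SD over the L-1236 arrays) on each of the 12 arrays (columns), minus the mean of the gene over all 12, with colours capped at 2.5 either way. Most rows are red on L-1236 siGATA-3 2 and siSCR 3 and blue on L-1236 siSCR 1 and 2, while the L-UHO-1 columns differ little among themselves.

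The order of the L-1236 arrays was shared by most members. In 37 of 42 members the 2 highest arrays were siGATA-3 2 and siSCR 3, and in 35 the 2 lowest were siSCR 1 and siSCR 2. Both held in 34 members, against 1.71% of all probe sets. The full order, these 2 on top, then siGATA-3 1, then siGATA-3 3, then siSCR 1 and siSCR 2, was found in 34 members, against 0.919% of all probe sets. Array siSCR 3 was the highest of the line in 33 members (12.8% of all probe sets), siGATA-3 2 in 6 and siSCR 1 in 3. The lowest was siSCR 2 in 26 members, siSCR 1 in 12 and siGATA-3 3 in 4. Of the 8 members outside the full order, SAMD9 had siGATA-3 1 above siGATA-3 2, OASL and ISG15 had siSCR 1 above siGATA-3 3, and RSAD2 had siGATA-3 3 lowest. The other 4 were HERC6, LGALS3BP, IFI27 and CMPK2.

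Of the IFIT genes, whose products bind viral RNA ends and block translation, IFIT1, IFIT2 and IFIT3 had the widest spans of the members. IFIT1 read 7.88, 10.19 and 7.18 on the L-1236 arrays labelled siGATA-3 and 6.69, 6.45 and 10.17 on those labelled siSCR. In L-UHO-1 it read 6.89, 7.34 and 6.83 with siGATA-3 and 7.09, 6.74 and 6.99 with siSCR. In L-1236, siGATA-3 2 and siSCR 3 therefore stood apart from the other 4 arrays, which lay between 6.45 and 7.88. IFIT2, a partner of IFIT1, read 8.46, 10.45 and 7.81 with siGATA-3 and 7.52, 6.63 and 10.75 with siSCR in L-1236, which spans 4.12 log2 units or 17.3-fold, and it spanned 0.50 in L-UHO-1. IFIT3, which stabilises IFIT1, read 7.26, 8.80 and 6.75 with siGATA-3 and 6.03, 5.41 and 9.07 with siSCR in L-1236 and 7.67 to 8.02 in L-UHO-1. IFIT5 spanned 2.37 in L-1236 and 0.22 in L-UHO-1. In IFIT3 and IFIT5 the L-UHO-1 arrays stood near the upper part of the L-1236 range, whereas in IFIT1 they stood near its lower part.

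The oligoadenylate synthetases OAS1, OAS2 and OAS3 make the messenger that switches on RNase L, and OASL, a relative without that activity, acts on the RNA sensor RIG-I. OAS2 read 10.46, 11.05 and 9.53 with siGATA-3 and 8.38, 8.30 and 11.18 with siSCR in L-1236, and 8.67 to 9.08 over all L-UHO-1 arrays. OAS1 read 9.21, 9.90 and 8.37 with siGATA-3 and 7.79, 7.39 and 10.08 with siSCR in L-1236, and 7.43 to 7.80 in L-UHO-1. Both had siSCR 3 on top of the arrays labelled siGATA-3 and the other siSCR arrays below them. OAS3 and OASL spanned 2.33 and 2.50 in L-1236, against 0.35 and 0.19 in L-UHO-1. The dynamin-like GTPase MX1, which blocks influenza virus, read 10.16, 10.99 and 9.53 with siGATA-3 and 8.47, 8.07 and 10.99 with siSCR in L-1236, and 7.42 to 8.25 in L-UHO-1. Its neighbour MX2, active against HIV, spanned 1.96 in L-1236 and 0.19 in L-UHO-1. IFI44, an interferon-induced protein of uncertain role, read 9.23, 10.19 and 8.30 with siGATA-3 and 7.79, 7.11 and 10.38 with siSCR in L-1236, against 6.49 to 6.88 in L-UHO-1, so that its lowest L-1236 array exceeded every L-UHO-1 array. IFI44L spanned 2.10 in L-1236 and 0.76 in L-UHO-1.

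**Figure D2:**
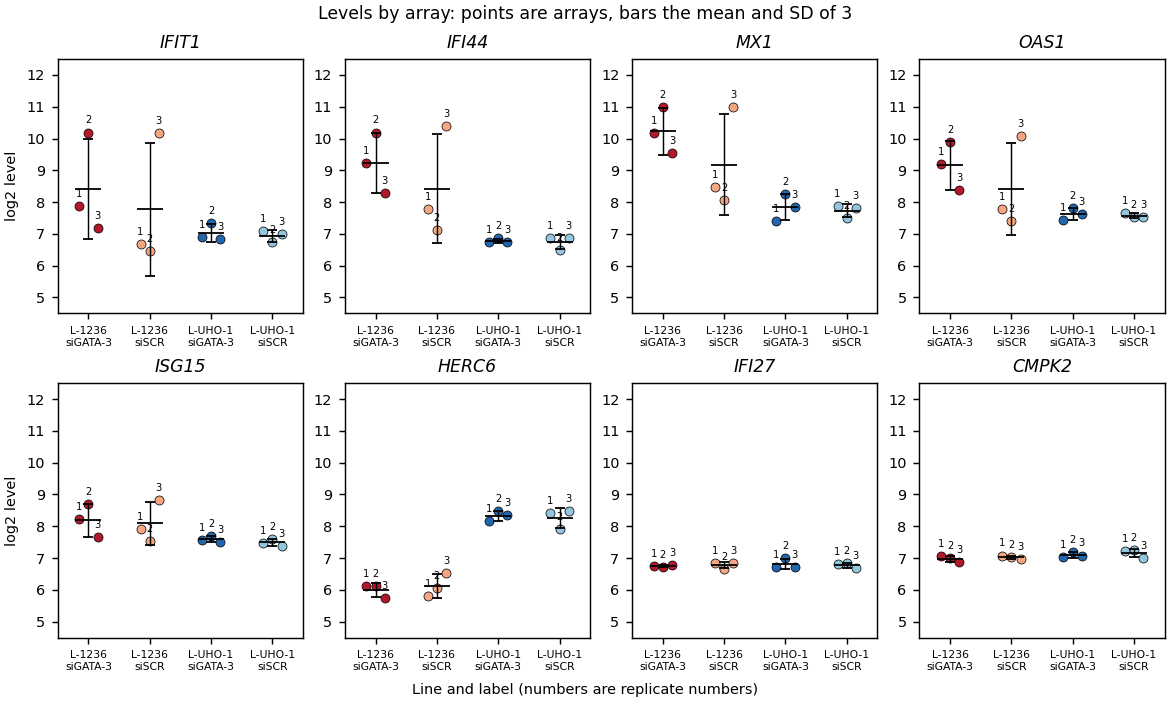
Log2 level (vertical axis) of 8 interferon response genes in the 4 groups, with points for arrays, replicate numbers above them, horizontal bars for the mean of 3 and vertical bars for its SD. IFIT1, IFI44, MX1, OAS1 and ISG15 spread widely within both L-1236 labels and little in L-UHO-1, HERC6 is separated by line, and IFI27 and CMPK2 are level throughout.

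The genes of the ISG15 system did not vary alike. ISG15, the ubiquitin-like modifier, read 8.22, 8.69 and 7.66 with siGATA-3 and 7.91, 7.53 and 8.84 with siSCR in L-1236, and 7.39 to 7.69 in L-UHO-1. HERC5, the ligase that attaches ISG15 in human cells, read 8.01, 9.45 and 7.58 with siGATA-3 and 7.24, 7.06 and 9.82 with siSCR in L-1236, and 8.01 to 8.29 in L-UHO-1. The protease USP18, which removes ISG15 and restrains the receptor, spanned 2.15 in L-1236 and 0.37 in L-UHO-1. The conjugating enzyme UBE2L6 read 9.42, 9.78 and 9.40 with siGATA-3 and 9.07, 9.14 and 9.69 with siSCR in L-1236, a span of 0.71, and 9.31 to 9.50 in L-UHO-1. HERC6, the neighbour of HERC5 and the main ISG15 ligase in mouse, read 6.13, 6.12 and 5.75 with siGATA-3 and 5.80, 6.05 and 6.54 with siSCR in L-1236, and 7.91 to 8.49 in L-UHO-1. Thus HERC5 spanned 2.76 and HERC6 0.78 over the same L-1236 arrays, with HERC6 far lower than in L-UHO-1 on each of them.

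The sensors had smaller spans than the IFIT genes and the shared order of arrays. The RNA helicases IFIH1, DHX58 and DDX60 spanned 1.96, 1.88 and 2.02 in L-1236 and 0.25, 0.19 and 0.37 in L-UHO-1. IFI16, a DNA sensor, spanned 1.99 in L-1236 and 0.23 in L-UHO-1, and EIF2AK2, the RNA-activated kinase that stops translation, 1.12 in L-1236 and 0.31 in L-UHO-1. TRIM22 and SP110, nuclear antiviral proteins, spanned 2.42 and 1.13 in L-1236, SAMD9 and SAMD9L 2.39 and 2.00, and the ADP-ribosylation genes PARP9, PARP14 and DTX3L 2.11, 2.22 and 1.88. The spans were not alike among membrane and organelle proteins. IFI6 spanned 2.50 in L-1236 and PLSCR1 1.82, while the virus tether BST2 spanned 0.79, RTP4 0.79 and LAMP3 0.88. XAF1, a promoter of apoptosis, IFI35 and EPSTI1 spanned 2.51, 2.38 and 1.46 in L-1236, and the exonuclease ISG20 1.00. RSAD2, the antiviral enzyme viperin, read 6.16, 6.86 and 5.89 with siGATA-3 and 6.25, 6.03 and 7.00 with siSCR in L-1236, a span of 1.12 at low levels. In L-UHO-1 the largest span of any member was 0.94, in SAMD9.

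The members that did not follow the pattern were HERC6, IFI27, LGALS3BP and CMPK2. Over the 6 L-1236 arrays, the correlation of a gene with the mean of the other members was at least 0.9 in 35 of 42 and at least 0.8 in 38, and these 4 were the rest (arrays of 1 line that share scaling and label structure, given as description). It was 0.74 for HERC6 (Spearman's rho 0.71), 0.22 for IFI27 (rho 0.20), 0.15 for LGALS3BP (rho 0.26) and -0.20 for CMPK2 (rho -0.43). IFI27, a mitochondrial protein and a common marker of interferon exposure in blood, read 6.75, 6.72 and 6.77 with siGATA-3 and 6.85, 6.66 and 6.84 with siSCR in L-1236, and 6.69 to 6.99 in L-UHO-1. LGALS3BP, a secreted galectin-binding glycoprotein, read 6.81, 6.90 and 6.77 with siGATA-3 and 6.98, 6.78 and 6.88 with siSCR in L-1236, and 6.94 to 7.32 in L-UHO-1. CMPK2, a mitochondrial nucleotide kinase and the genomic neighbour of RSAD2, read 7.05, 6.99 and 6.87 with siGATA-3 and 7.08, 7.02 and 6.97 with siSCR in L-1236, and 7.00 to 7.25 in L-UHO-1. The 3 lay within 0.21 of themselves over L-1236, near the median of 7.04 of the probe-set means. HERC6 read 5.75 to 6.54 over the L-1236 arrays, below that median on each. No background reading was available that would tell a flat gene from an undetected one, for HERC6 in L-1236 as for the 3. In L-UHO-1, where there was little to share, the correlation was at least 0.8 in 20 members and negative in 7.

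The SD over the 6 arrays of a line summarises this contrast. The median SD of the members was 0.889 in L-1236 and 0.131 in L-UHO-1. Over all probe sets it was 0.119 in L-1236 and 0.111 in L-UHO-1. The median ratio of the SDs was 6.71 for the members and 1.07 for all probe sets. The SD was higher in L-1236 in 39 members (55.1% of all probe sets) and at least 4 times as high in 30 (1.39% of all probe sets). A range of at least 1 was found in 34 members over L-1236 (1.93% of all probe sets) and in 0 members over L-UHO-1 (1.35%), and 22 members spanned at least 2 in L-1236. The largest SDs in L-1236 were 1.69 in IFIT1, 1.66 in IFIT2, 1.47 in IFIT3, 1.32 in IFI44, 1.28 in OAS2, 1.24 in MX1, 1.17 in HERC5 and 1.12 in OAS1. The smallest were 0.0726 in CMPK2, 0.0742 in IFI27, 0.0811 in LGALS3BP, 0.281 in HERC6 and 0.283 in UBE2L6. The ratio was below 1 in LGALS3BP, IFI27 and CMPK2 and highest in OASL at 15.4.

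**Figure D3:**
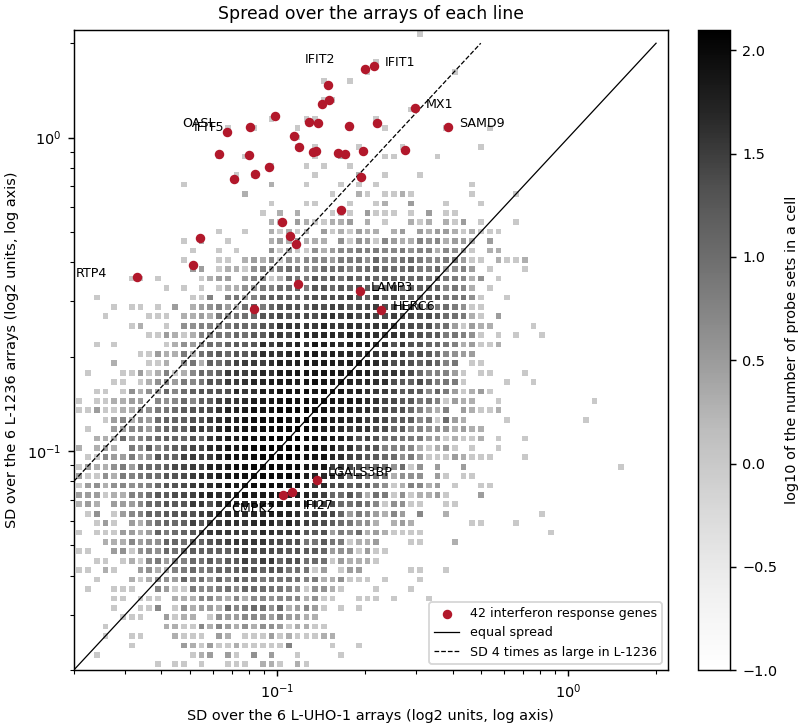
SD over the 6 L-1236 arrays (vertical, log axis) against SD over the 6 L-UHO-1 arrays (horizontal, log axis), in log2 units, for the 42 interferon response genes (red) and for all probe sets binned in grey. A solid line marks equal spread and a dashed line a spread 4 times as large in L-1236, with 30 members above the dashed line and 3 below the solid one.

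A test of the absolute deviations from the mean of the line (limma, adjusted over all probe sets, called at an adjusted p under 0.05) found a wider spread in L-1236 for 9 members, against 0.0557% of all probe sets, and a narrower one for 0 members (0.0248%). The 9 were IFIT5 (adjusted p = 0.0155), TRIM22, OAS3, USP18 and PLSCR1 (adjusted p = 0.0276 each by limma), and IFI6, DDX60, MX2 and RTP4 (adjusted p = 0.0432 each by limma). At an unadjusted p under 0.05 the spread was wider in 37 members (6.84% of all probe sets), against 3.74% of all probe sets with a narrower one. The wide spread of these genes was known when this test was chosen, so it is no independent evidence. Its calls depended on single arrays: without L-1236 siSCR 3, L-UHO-1 siSCR 1 or L-UHO-1 siGATA-3 2 there were 0, and without L-1236 siGATA-3 3 or L-1236 siGATA-3 1 there were 27 or 22.

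Between the labels in L-1236, siGATA-3 against siSCR, 0 members passed the criteria of the submitters, a false discovery rate up to 25% and a change of 1.5-fold or more (limma), and 0.0% of all probe sets did. The median log2 difference of the members was 0.53, against -0.0091 over all probe sets. It was positive in 36 members (46.7% of all probe sets) and at least 1.5-fold up in 17 (0.0804% of all probe sets), and 0 members were lower by that much (0.108% of all probe sets). An unadjusted p under 0.05 was reached by 0 members, against 1.4% of all probe sets with a higher and 3.37% with a lower level. The smallest p were those of EIF2AK2 at 0.48 (SE 0.23, unadjusted p = 0.0572, limma), IFI16 at 0.81 (SE 0.41), SP110 at 0.44 (SE 0.23) and SAMD9L at 0.83 (SE 0.43), all with an adjusted p of 0.925. EIF2AK2 read 11.57, 11.58 and 11.16 with siGATA-3 and 10.50, 10.73 and 11.63 with siSCR, and IFI16 read 9.53, 9.85 and 9.01 with siGATA-3 and 7.96, 8.06 and 9.95 with siSCR. In both, siSCR 1 and 2 lay below every array labelled siGATA-3 and siSCR 3 above every one. The labels overlapped in all 42 members, whereas 3.24% of all probe sets were higher and 7.45% lower without overlap.

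Array siSCR 3, whose GATA3 reading was the lowest of L-1236, decided this comparison. Without it, 9 members were called, among 0.0681% of all probe sets: EIF2AK2, IFI16, IFI44L, IFIH1, MX1, OAS2, SAMD9L, SP110 and XAF1. The median difference was then 1.19, and 35 members were higher at an unadjusted p under 0.05, against 4.04% of all probe sets. Without any other single array the median lay between 0.17 and 0.79 and 0 members were called. Without siGATA-3 1 and siSCR 3 of both lines, the 4 arrays left in L-1236 gave a median of 1.17 and 34 members higher at an unadjusted p under 0.05 (5.02% of all probe sets), but 0 called (smallest adjusted p = 0.309, limma). Which of the labels is right on these arrays was not tested.

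In L-UHO-1, siGATA-3 against siSCR, 0 members were called (limma, 0.0% of all probe sets) and 0 had an unadjusted p under 0.05 (0.554% of all probe sets higher and 0.495% lower). A fold of at least 1.5 was reached by 0 members (0.0155% of all probe sets higher and 0.00309% lower). The median difference was 0.03, with 31 members positive (49.0% of all probe sets) and 11 negative. The largest was 0.32 (SE 0.44) in IFI44L, which read 8.68, 9.23 and 8.81 with siGATA-3 and 8.78, 8.48 and 8.50 with siSCR. The next smallest p belonged to LGALS3BP at -0.06, CMPK2 at -0.05 and LAMP3 at 0.09. The labels overlapped in all 42 members, whereas 1.8% of all probe sets were higher and 1.99% lower without overlap. The fit pools the wide L-1236 and the narrow L-UHO-1 spread, and with the 6 arrays of each line fitted alone the smallest unadjusted p (limma) was 0.124 in L-1236 (EIF2AK2) and 0.0665 in L-UHO-1 (IFI44L). The difference between the label effects, L-1236 minus L-UHO-1, had a median of 0.48 over the members and was called (adjusted p under 0.05, limma) in 0 of them (0.0% of all probe sets), with a smallest unadjusted p of 0.168. A p above the threshold does not show that the lines responded alike. Without L-1236 siSCR 3 the median was 1.13, with 31 members above 0 at an unadjusted p under 0.05 (1.91% of all probe sets) and 0 called.

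**Figure D4:**
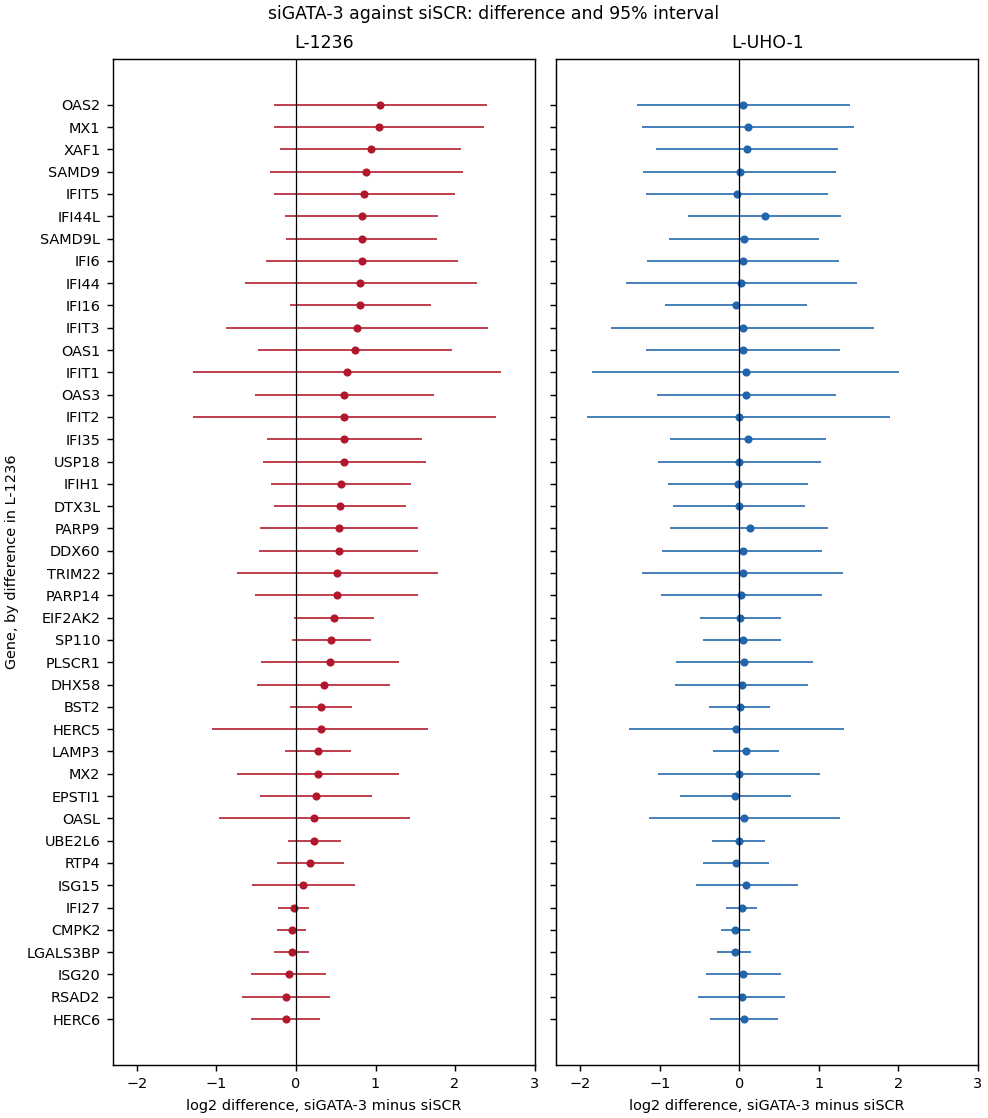
Log2 difference, siGATA-3 minus siSCR, with its 95% interval from the fit over 12 arrays, for each interferon response gene in L-1236 (left) and L-UHO-1 (right). All intervals include 0, with a median of 0.53 in L-1236 and 0.03 in L-UHO-1.

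Between the lines, over both labels, the interferon response genes split in direction. At an adjusted p under 0.05 and a fold of at least 2 (limma), 6 members were higher in L-1236 (2.45% of all probe sets) and 3 lower (2.43%), and the median difference was 0.51, against -0.016 over all probe sets. This balance moved either way with the arrays left out. The GATA3 readings put the label of an array in doubt, not its line. Without L-1236 siSCR 3, the highest array of the line in 33 members, the median was 0.20, with 3 members higher (2.3% of all probe sets) and 5 lower (2.5%). Without L-1236 siSCR 2, the lowest in 26 members, the median was 0.68, with 10 higher and 2 lower. Without siGATA-3 1 and siSCR 3 of both lines the median was 0.11, with 3 higher (2.48%) and 4 lower (2.26%). IFI44 averaged 8.83 in L-1236 and 6.77 in L-UHO-1 (log2 difference 2.07, SE 0.47, 4.20-fold, adjusted p = 0.00403, limma). IFI44L averaged 10.68 in L-1236 and 8.75 in L-UHO-1 (1.94, SE 0.31, adjusted p = 0.00033, limma), and MX1 9.70 in L-1236 and 7.79 in L-UHO-1 (1.91, SE 0.43). The other 3 that were higher in L-1236 were OAS1 with a log2 difference of 1.19 (SE 0.39), SP110 with 1.11 (SE 0.16) and PLSCR1, a membrane lipid scramblase, with 1.06 (SE 0.28). HERC6 averaged 6.06 in L-1236 and 8.30 in L-UHO-1 (log2 difference -2.24, SE 0.14, 4.72-fold, adjusted p = 9.3e-08, limma), the smallest p of the members. MX2 averaged 7.45 in L-1236 and 9.00 in L-UHO-1 (-1.55, SE 0.33), and IFIT5 7.56 in L-1236 and 8.61 in L-UHO-1 (-1.05, SE 0.37). MX1 and MX2 are neighbours on chromosome 21 and differed in opposite directions. MX2 read 7.63, 8.40 and 6.75 with siGATA-3 and 6.64, 6.71 and 8.59 with siSCR in L-1236, against 8.91 to 9.11 in L-UHO-1, so that even its highest L-1236 arrays stayed below L-UHO-1.

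The arrays of the lines did not overlap in 5 members that were higher in L-1236 (IFI44, IFI44L, PLSCR1, EPSTI1 and SP110, against 11.5% of all probe sets) and in 2 that were lower (MX2 and HERC6, against 11.8%). IFI44, IFI44L, MX1, MX2 and HERC6 were called in each of 12 fits without 1 array, SP110 in 11, PLSCR1 in 10, OAS1 in 4 and IFIT5 in 3. Among arrays labelled siSCR alone, IFI44L was higher in L-1236 (2.31% of all probe sets), and MX2, IFI16 and HERC6 were lower (2.69%). The siSCR arrays of IFI44L read 9.65, 9.53 and 11.63 in L-1236, all above the 8.48 to 8.78 of L-UHO-1. HERC6 thus differed between the lines by far more than it varied within L-1236, while IFIT5 on siGATA-3 2 and siSCR 3 read 8.49 and 8.66, within the 8.49 to 8.71 of L-UHO-1.

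The genes above and beside the response came from lists of the pathway. Of 21 interferon ligands 16 were measured, and 0 of them spanned 1 log2 unit in either line. Over all probe sets 1.93% did so in L-1236 and 1.35% in L-UHO-1, so 0 of 16 is no result about the ligands. Their means per array were 5.77 to 5.93 in L-1236 and 5.80 to 5.94 in L-UHO-1, under the median of 7.04 of the probe-set means. Without a background reading, level ligands cannot be told from undetected ones. IFNB1, the first interferon made by most infected cells, read 5.48, 5.68 and 5.40 with siGATA-3 and 5.61, 5.52 and 5.76 with siSCR in L-1236, and 5.47 to 5.70 in L-UHO-1. Its highest L-1236 arrays were siSCR 3 and siGATA-3 2, by small differences. IFNL1, a type III interferon, read 6.89, 7.13 and 6.70 with siGATA-3 and 6.87, 6.86 and 7.53 with siSCR in L-1236, highest on siSCR 3, and 6.54 to 7.05 in L-UHO-1, although near-identical ligand genes may share its probes. Of the 6 receptor genes, IFNAR1 read 8.38 to 8.84 and IFNAR2 7.12 to 7.50 over the L-1236 arrays. Of these 6 genes, 2 differed past the threshold between the lines, both chains of the interferon gamma receptor. Over all probe sets 2.45% were higher in L-1236 and 2.43% lower. IFNGR2 was higher at 9.25 to 9.74 in L-1236, against 7.78 to 8.02 in L-UHO-1, and IFNGR1 lower at 6.94 to 7.53 in L-1236, against 8.45 to 9.33 in L-UHO-1. Of the signal transducers, JAK1, JAK2, TYK2 and IRF9 were analysed here. IRF9 read 9.16, 9.17 and 8.93 with siGATA-3 and 8.55, 8.49 and 9.34 with siSCR in L-1236, in the order of the members, and 8.92 to 9.08 in L-UHO-1.

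Among 7 measured interferon regulatory factors, IRF1 and IRF7 spanned at least 1 in L-1236 (1.93% of all probe sets). IRF1 and IRF8 were lower in L-1236 than in L-UHO-1 (2.43% of all probe sets). IRF7, the factor that amplifies interferon production, read 8.46, 8.75 and 7.99 with siGATA-3 and 8.09, 7.70 and 8.64 with siSCR in L-1236. Of 15 sensors and adaptors, 4 spanned at least 1 in L-1236 (RIGI, MYD88, TRIM25 and AIM2, against 1.93% of all probe sets). Between the lines, RIGI and the DNA-response adaptor STING1 were higher in L-1236 (2.45% of all probe sets). The endosomal RNA sensor TLR7 and the DNA sensor AIM2 were lower (2.43%). RIGI, the RNA helicase sensor, read 9.12, 9.70 and 8.67 with siGATA-3 and 8.10, 8.10 and 10.05 with siSCR in L-1236, and 7.39 to 7.69 in L-UHO-1. TLR7 read 5.86 to 6.26 in L-1236 and 8.18 to 8.68 in L-UHO-1 and varied little within either. Of 11 measured negative regulators, TRIM21 spanned 1.20 in L-1236 and passed the test of spread (adjusted p = 0.0432, limma).

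**Figure D5:**
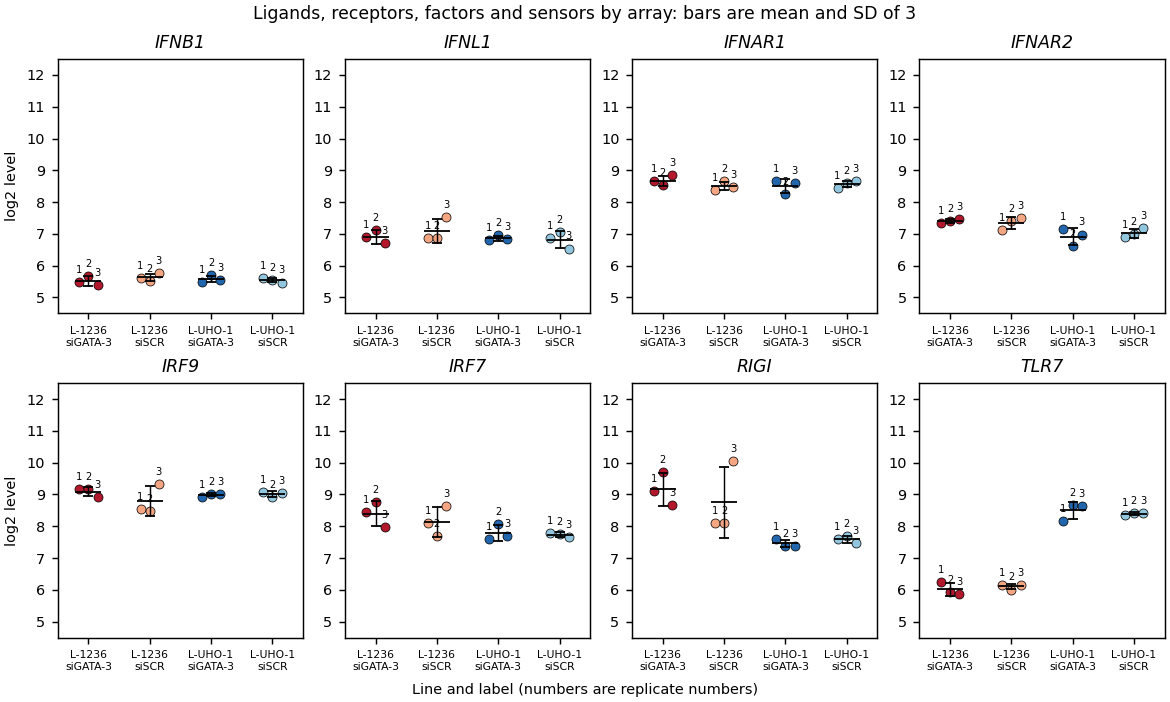
Log2 level (vertical axis) of the ligands IFNB1 and IFNL1, the receptor chains IFNAR1 and IFNAR2, IRF9, IRF7 and the sensors RIGI and TLR7 in the 4 groups. Points are arrays, and bars are the mean and SD of 3. IRF7, IRF9 and RIGI are highest in L-1236 on siGATA-3 2 and siSCR 3. IFNB1 is low and varies less, with the same arrays highest in L-1236. The receptors are level, and TLR7 is separated by line.

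Of 38 interferon-inducible genes in another list 32 were measured, with IRF7, RIGI and TRIM25 of the lists above counted again. Of the 32, 13 spanned at least 1 in L-1236 (1.93% of all probe sets), IRF7, RIGI and TRIM25 among them. In L-UHO-1, 2 did (GBP4 and CXCL10, against 1.35%). In 17 of the 32 the 2 highest L-1236 arrays were siGATA-3 2 and siSCR 3 and the 2 lowest siSCR 1 and siSCR 2. This held in 1.71% of all probe sets. CXCL11, a chemokine that attracts T cells, spanned the most, reading 6.62, 9.07 and 6.85 with siGATA-3 and 5.78, 6.20 and 9.24 with siSCR in L-1236, and 5.84 to 6.31 in L-UHO-1. Between the lines TAP1, PSMB8 and PSMB9, which prepare and carry peptides for antigen presentation, and RIGI were higher in L-1236 (2.45% of all probe sets). IFITM2, GBP3 and GBP4 were lower (2.43%). In every list of the pathway 0 genes were called between the labels in either line.

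Genes outside the list with the same array order in L-1236 were sought among 236 genes of 18362 that spanned at least 1 there, by the correlation with the mean of the members over the 6 arrays. Of these, 30 had a correlation of at least 0.9, 46 one of at least 0.8 and 13 one of at most -0.8. The 10 highest, from 0.98 to 1.00, were UBA7, LAP3, RIGI, TRIM21, SLFN5, SHFL, TRANK1, AIM2, GBP4 and PARP12. UBA7, the enzyme that activates ISG15, read 9.93, 10.44 and 9.55 with siGATA-3 and 9.22, 9.14 and 10.46 with siSCR in L-1236, and 8.19 to 8.52 in L-UHO-1. SLFN5 read 8.23, 8.80 and 7.45 with siGATA-3 and 7.27, 7.04 and 9.15 with siSCR in L-1236, and 8.33 to 9.31 in L-UHO-1. A choice of the best of 236 genes over 6 arrays gives high correlations, so these are a description.

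Several members lie beside each other on their chromosomes, with no protein-coding gene of the reference table between them: IFI44L and IFI44, IFIT2 and IFIT3, IFIT1 and IFIT5, OAS1, OAS3 and OAS2, CMPK2 and RSAD2, MX2 and MX1, PARP9 and DTX3L, HERC6 and HERC5, and SAMD9 and SAMD9L. Of these 10 pairs of neighbours, 2 held a gene with a much smaller span in L-1236 than the rest. They were CMPK2 and RSAD2, with spans of 0.20 and 1.12, and HERC6 and HERC5, with spans of 0.78 and 2.76. In the other 8 pairs the smallest span of any gene was 1.88. That value was read from these pairs, so the count of 8 is a description and no test. Wide spans were common in the whole list, where 22 of 42 members spanned at least 2 in L-1236. Whether neighbours were more alike than other members was not tested.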

How the data were processed

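The deposited table holds 1 value for each of 32321 probe sets on each of 12 Affymetrix whole-transcript arrays. The values are on a log scale that the authors deposited already normalized, taken here as log2 because they run from 3.86 to 13.99, and every fold rests on that reading. R 2.8.1 was used, per the submitters' processing notes, and how background was corrected, arrays normalized and probes summarised is not given in the sources used here. Through the platform annotation 19158 probe sets have 1 gene symbol, 1388 several and 11775 none, and only those with 1 symbol were named. All 42 members had 1 probe set, and 1 further probe set that names USP18 with another symbol was not used. By Entrez identifier 19128 probe sets were found in the GRCh38.p14 gene table, and 0 symbols changed.

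All 12 arrays entered 1 limma fit (limma 3.58.1 in R 4.3.3) with a mean for each of the 4 groups, with Benjamini-Hochberg adjustment across the whole table. Calls between the labels used the submitters' limits, a false discovery rate up to 25% with a change of 1.5-fold or more, those between the lines an adjusted p under 0.05 and a fold of at least 2. For spread, absolute deviations from the line mean were fitted in the same way. The fits were tested on simulated data: of 100 probe sets changed by 1.5-fold or by 2-fold between the labels in L-1236, 45% or 95% were recovered, with 7 unchanged probe sets called. Of 100 given 4 or 8 times the spread with normal noise, 0% were called wider, against 100% where each array took 1 of 2 levels, with 25 unchanged probe sets called. The rates between the labels were not computed for the members, whose median SD in L-1236 was 0.889, against 0.119 over all probe sets. There MX1 and OAS2 differed 2.07-fold and 2.08-fold between the labels and were not called (adjusted p = 0.925 each, limma). A count of 0 members called therefore does not show that such changes were absent.

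Same-numbered arrays of the labels, compared by their deviations from the group means, correlated at 0.17, -0.40 and -0.22 in L-1236 and -0.17, 0.06 and 0.32 in L-UHO-1, so the numbers were not taken as pairs. The members and lists, and the rule for named genes, were chosen with earlier results of these data known. Named in full were the 8 members with the largest and the 5 with the smallest L-1236 SD, those with a correlation under 0.8 with the others, up to 5 called each way between the lines, up to 4 with the smallest p between the labels, and common representatives. Alternatives were quantile normalization, centring, a filter on dim probe sets, a fit with 1 probe set per gene, other priors, array weights, a replicate block, leaving out arrays, other centres of the deviations and other thresholds. Leaving out 4 arrays and an F test of the variances were added after seeing the data. Of all pairs of arrays, 0 were identical.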

Additional observations from a re-analysis of the deposited data

How the results depend on the processing

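The counts of members called between the labels, 0 in L-1236, 0 in L-UHO-1 and 0 for the difference of the effects, changed in none of the alternatives run except without L-1236 siSCR 3, where 9 members were called in L-1236 (a range of 0 to 9 over fits without 1 array). Between the lines, 6 members were higher and 3 lower in L-1236. The number higher was 13 with array weights (2.51% of all probe sets) and 15 in either direction (5.08%). With no fold limit it was 11 (17.1%) and 15 in either direction (35.1%), a share of the 42 close to that of all probe sets. It was 1 among arrays labelled siSCR alone (4 in either direction) and 3 (with a median difference of 0.114) without siGATA-3 1 and siSCR 3 of both lines. Without 1 array it ran from 3 (without L-1236 siSCR 3) to 10 (without L-1236 siSCR 2), and the number lower from 2 to 5.

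The 9 members called for a wider spread in L-1236 were the least stable count. There were 21 with dim probe sets left out (38 members kept), 5 with array medians set equal, 4 with deviations from the line median, and 0 with deviations from the group means, with a trended and robust prior, by the F test of the variances or without siGATA-3 1 and siSCR 3 of both lines. Without 1 array the count ran from 0 to 27. With the replicate number as a block, 1 member was called for spread, although the numbers do not pair the samples, and the block changed no call between the labels. The size of the contrast moved less than the count: the median difference in deviation was 0.664 log2 units as reported, 0.649 from group means, 0.664 with the robust prior, 0.602 without L-1236 siSCR 3 and 0.687 and 0.688 without L-UHO-1 siSCR 1 and siGATA-3 2, all with 0 calls. Why the calls were lost was not tested. In simulated data the test called only spread that came as 2 levels, so a count of 0 does not show equal spread. The directions of the descriptive SDs do not rest on it.

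The number of arrays limits precision, and signal over background is not known from the table.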

Other observations

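In L-1236 the arrays in rising order of GATA3 were siSCR 3 (9.95), siGATA-3 2 (10.00), siGATA-3 3 (10.24), siSCR 1 (10.29), siSCR 2 (10.69) and siGATA-3 1 (10.80). The mean of the 42 interferon response genes on the same arrays was 9.59, 9.44, 8.32, 7.88, 7.73 and 8.89, so that siGATA-3 1 alone broke an opposite order. Pearson's correlation of GATA3 with that mean was -0.56 over these 6 arrays (Spearman's rho -0.66) and -0.09 over the 6 L-UHO-1 arrays (rho -0.26). It was noticed in these data and whether it holds beyond these arrays was not tested.

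Dixon's criterion, which looks for 1 array far from all others, was met in 0 of 88 sets of 6 values of a line (GATA3, the members and their mean). It cannot pick out 2 arrays that are high together, as siGATA-3 2 and siSCR 3 of L-1236 were in IFIT1.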
